A study of Homo sapiens with 9 samples.

Results

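The genes described here encode the enzymes that build, interconvert and recycle nucleotides, together with the folate enzymes that supply them with single carbon units. The set was a list of 33 gene symbols, and a gene was measured where a row of the array named that gene alone. This held for 29 of the 33 genes, out of 17047 genes in the series with such a row. PRPS1, ADSS2, DTYMK and MTHFD1L had no such row and are not analysed here. All 29 passed a filter that left out the 25% of genes with the lowest mean signal, and 12785 genes were tested in all.

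RNA came from A375P, an established human melanoma cell line that carries a mutant RAF kinase, so every group shares that mutation. Cells received the solvent DMSO, 1 µM PD184352, which inhibits MEK, or 0.4 µM PLX4720, which inhibits RAF, and were taken at 2, 6 or 24 h. There was 1 deposited column for each of the 9 combinations, called an array here. The design text mentions triplicate experiments, and the sources used here do not give how these relate to the columns. Median intensity lay between 98.96 and 102.4 per array, and 7 of 8 measured melanocyte markers passed the filter, SOX10 among them at a log2 level of 9.72 to 10.79. Of the markers of other cell types, 4 of 5 measured for fibroblasts, 2 of 4 for epithelial cells and 2 of 5 for leukocytes passed as well. The leukocyte markers that passed were CD14 and CD68, and PTPRC, the marker common to leukocytes, stayed below the filter at 3.64 to 3.74. The summed intensity of the fibroblast markers was 412.2 to 439.3 with DMSO and 446.3 to 451.1 on the 24 h inhibitor arrays, and that of the epithelial markers 465 to 536.3 and 524.7 to 557.4. The summed intensity of the melanocyte markers was 4976 to 5202 with DMSO and 6702 to 7220 on the 24 h inhibitor arrays. The summed intensity of the 5 measured leukocyte markers was 1424 to 2106 with DMSO and 2120 to 2307 on the 24 h inhibitor arrays with CD68, a gene of lysosomal membranes, as its brightest member. The part of these shifts in the results was not tested.

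Purine nucleotides are assembled stepwise on a ribose phosphate, and the product, IMP, is then turned into AMP or GMP. Pyrimidine rings are made first and joined to the ribose phosphate afterwards. Ribonucleotide reductase removes an oxygen from the ribose to give the deoxynucleotides of DNA, and thymidylate synthase adds the methyl group of thymine. Folates carry the carbon for purine rings and for thymine, mostly from serine, through parallel enzymes in cytosol and mitochondria. Salvage enzymes recycle free bases and nucleosides. Dividing cells draw on this network to copy their DNA and make RNA.

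After 24 h with either inhibitor, most of these genes were lower than in DMSO cells of the same time. In limma's test of the mean of both inhibitors against DMSO, 23 of the 29 fell, where 19.2% of all tested genes did, and 1 rose, where 12.5% of all tested genes did. The other 5 did not pass. The median log2 change was -0.70 over the 29, against -0.01 over all tested genes. The lowest was MTHFD2, a mitochondrial folate enzyme, at -1.64 (SE 0.16), and the highest was ADA, which degrades adenosine, at 0.48 (SE 0.10). A change is a difference of log2(intensity + 1), and each value sets 2 inhibitor arrays against 1 DMSO array. The SE therefore reflects the spread between the 2 compounds over all times, not between cultures. Limma moderates it towards the spread of all tested genes, so part of it does not come from the gene itself. From RNA of whole cultures, fewer cells that express a gene and less of its RNA per cell cannot be told apart.

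**Figure D1:**
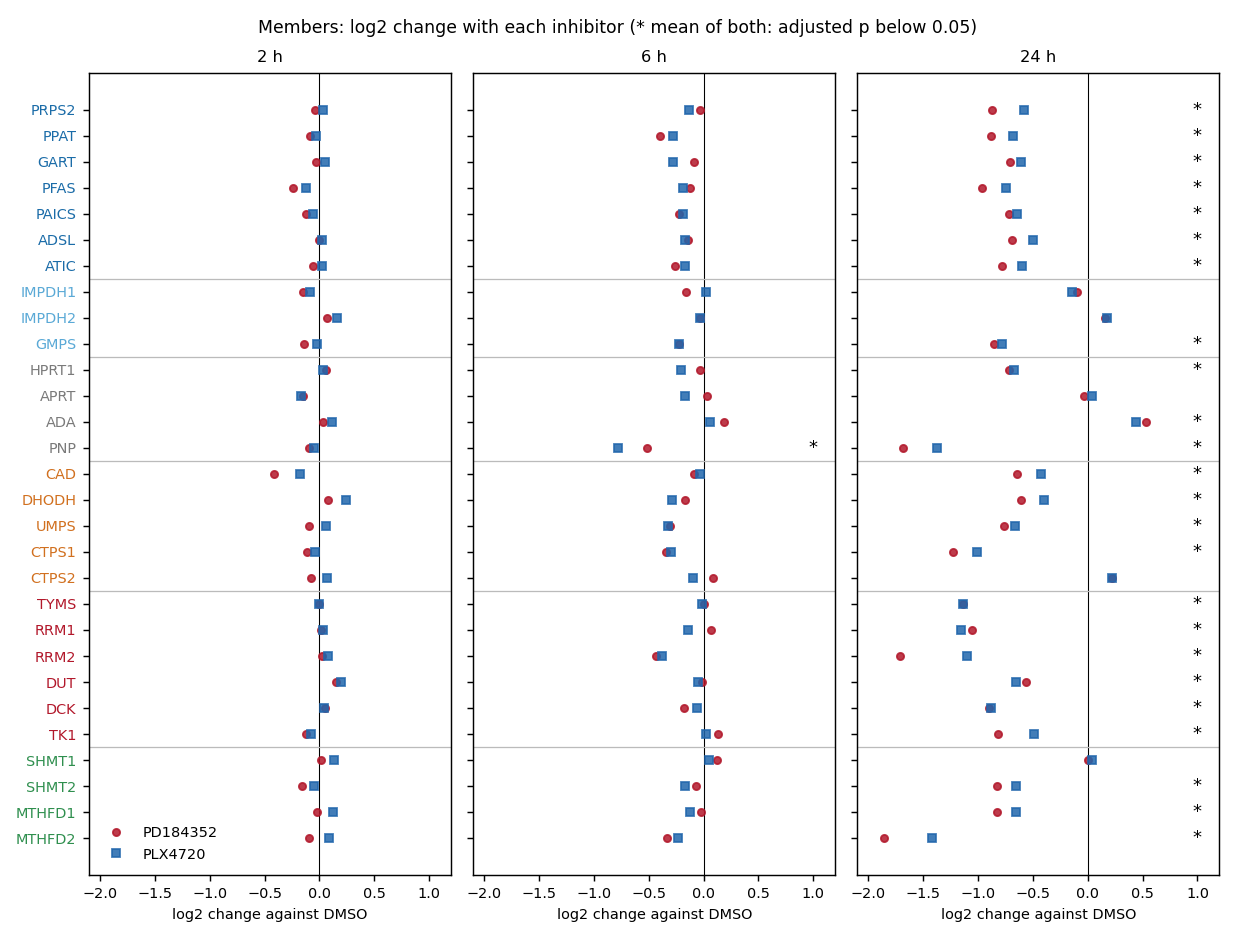
Each row is 1 of the 29 measured genes, coloured and ruled off by step, and the x axis is the log2 change against the DMSO array of the same time for PD184352 (circles) and PLX4720 (squares). Stars mark genes whose mean change had an adjusted p below 0.05: none at 2 h, PNP at 6 h, and 24 genes at 24 h, of which 23 lie to the left of 0.

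On single arrays, the same ones as in the test above, most of these genes read lowest with the inhibitors at 24 h. For 24 of the 29 genes both 24 h inhibitor arrays read below each of the other 7 arrays, which was true of 22.6% of all tested genes. These 24 were the 23 genes called lower and IMPDH1, whose change did not pass. For IMPDH1 the distance was small, with 9.18 and 9.13 at 24 h and 9.23 with PD184352 at 6 h. For 3 genes, IMPDH2, ADA and CTPS2, both 24 h inhibitor arrays read above the other 7, which was true of 19.9% of all tested genes. The 2 that remained, APRT and SHMT1, overlapped with the other arrays.

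Promoter sequence is shown for members from several steps, picked by name and not by a rule, and all of these but ADA were lower at 24 h. Whether their promoters had a part in the falls was not tested. RefSeq promoters of build GRCh38.p14 were at hand for 26 of the 29 genes, and the 250 bases before each listed start were searched on both strands for 7 motifs. Capitals mark matches. TYMS, which makes thymidylate, was at -1.14 (SE 0.08) at 24 h and is shown at chr18:657403-657652 on the plus strand, MTHFD2 at chr2:74198365-74198614 on the plus strand, and PNP, a salvage enzyme at -1.53 (SE 0.14), at chr14:20469156-20469405 on the plus strand. MTHFD1, a cytosolic folate enzyme at -0.74 (SE 0.10), is shown at chr14:64388103-64388352 on the plus strand, and ADA, the member that rose, at chr20:44651700-44651949 on the minus strand. PPAT and PAICS, both of the purine ring, start back to back, and the 136 bases between their starts are chr4:56435616-56435751, given on the PAICS strand.
TYMS: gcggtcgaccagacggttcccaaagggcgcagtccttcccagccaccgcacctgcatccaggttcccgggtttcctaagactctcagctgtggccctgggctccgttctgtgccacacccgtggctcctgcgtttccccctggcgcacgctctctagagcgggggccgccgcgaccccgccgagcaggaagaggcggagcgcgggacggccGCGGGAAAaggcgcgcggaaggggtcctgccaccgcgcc
MTHFD2: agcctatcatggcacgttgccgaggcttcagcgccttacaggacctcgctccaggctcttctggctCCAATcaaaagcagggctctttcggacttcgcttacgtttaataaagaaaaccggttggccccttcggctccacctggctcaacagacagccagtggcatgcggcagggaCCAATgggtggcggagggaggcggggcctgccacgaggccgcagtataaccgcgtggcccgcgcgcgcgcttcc
PNP: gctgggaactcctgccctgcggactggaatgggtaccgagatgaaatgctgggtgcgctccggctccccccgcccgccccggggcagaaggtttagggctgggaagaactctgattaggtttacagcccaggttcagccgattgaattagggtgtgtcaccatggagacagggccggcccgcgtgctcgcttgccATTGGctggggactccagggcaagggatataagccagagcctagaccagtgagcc
MTHFD1: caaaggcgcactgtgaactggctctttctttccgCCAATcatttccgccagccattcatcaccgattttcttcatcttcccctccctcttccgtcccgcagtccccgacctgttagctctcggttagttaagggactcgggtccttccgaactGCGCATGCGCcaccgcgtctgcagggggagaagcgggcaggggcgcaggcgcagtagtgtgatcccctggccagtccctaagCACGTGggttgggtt
ADA: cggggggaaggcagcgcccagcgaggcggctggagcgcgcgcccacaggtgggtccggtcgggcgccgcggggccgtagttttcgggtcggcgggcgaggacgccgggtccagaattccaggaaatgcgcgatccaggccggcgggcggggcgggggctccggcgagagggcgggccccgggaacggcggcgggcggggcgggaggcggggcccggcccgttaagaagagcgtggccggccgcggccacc
PPAT-PAICS: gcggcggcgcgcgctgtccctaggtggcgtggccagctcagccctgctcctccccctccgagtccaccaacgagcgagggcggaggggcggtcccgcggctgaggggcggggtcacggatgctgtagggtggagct

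The capitals in TYMS are an E2F-type octamer read on the minus strand, starting 39 bases before the start site (position -39). MTHFD2 has CCAAT boxes at -184 and -74, and PNP has 1 on the minus strand at -55. In MTHFD1 the capitals are a CCAAT box at -216, the palindromic NRF1 motif at -97 and the E-box CACGTG at -15. None of the 7 motifs occurs in the ADA window or between PPAT and PAICS. Over the 26 genes, CACGTG was found for 5 (ATIC, DCK, DHODH, MTHFD1 and PPAT), against 7.73% of the 27305 genes in the table. The PPAT match, at -182, lies past the PAICS start. CCAAT was found for 10, against 37% of all genes, in 9 of 21 that fell and in SHMT1, which did not change detectably. An E2F-type octamer (TTTCCCGC, TTTCGCGC, TTTGCCGC or TTTGGCGC) was found for 4, DUT, GART, PRPS2 and TYMS, against 3.40% of all genes. The NRF1 motif was found for 1, MTHFD1 (all genes 1.28%), the CRE motif TGACGTCA for 1, UMPS (2.03%), and neither the ETS motif CCGGAAGT (4.13%) nor the ATF motif TGATGNAA (3.89%) for any. A match is only a run of letters, and none of these measurements bears on binding. Genes with several listed starts had more sequence searched.

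The enzymes that build the purine ring all fell, with their brightest rows read. The 7 measured genes lay between -0.85 and -0.60 at 24 h, with a median of -0.69. With all rows of a gene averaged, PPAT and PAICS, which have a dimmer row each, lay outside that range. PFAS, which catalyses a middle step, read 9.88, 9.78 and 9.60 (log2) on the DMSO arrays of 2, 6 and 24 h, 9.64, 9.66 and 8.64 with PD184352, and 9.76, 9.60 and 8.86 with PLX4720. The early inhibitor arrays lay among or near the DMSO arrays, and both 24 h inhibitor arrays stood well below. Its change was -0.85 (SE 0.11, adjusted p = 0.00021), which left 55.4% of the DMSO level.

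PPAT, the committing enzyme of the pathway, read 7.75, 7.79 and 7.91 with DMSO, 7.66, 7.39 and 7.03 with PD184352 and 7.72, 7.51 and 7.23 with PLX4720. All 6 inhibitor arrays were below all 3 DMSO arrays, and the distance widened with time. At 24 h PPAT was at -0.78 (SE 0.10, adjusted p = 0.000303). A dimmer row that also names PPAT was at 0.26, and with both rows averaged PPAT no longer passed (-0.26, adjusted p = 0.0782). PRPS2, which makes the activated ribose phosphate, was at -0.72 (SE 0.12). Its DMSO arrays read 9.57, 9.65 and 9.49, and the 24 h arrays 8.62 with PD184352 and 8.91 with PLX4720.

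ATIC, which closes the ring, was at -0.69 (SE 0.10), and PAICS, which carries out a pair of steps before it, at -0.68 (SE 0.09). A dimmer row that names PAICS was at -0.18, and with both rows averaged PAICS was at -0.43 (adjusted p = 0.00542). GART, which acts at 3 steps, was at -0.66 (SE 0.10). For GART the DMSO signal itself went from 9.87 at 2 h to 10.23 at 24 h, while the inhibitor arrays at 24 h read 9.51 and 9.62. ADSL, used in the ring pathway and again on the way to AMP, had the smallest fall, -0.60 (SE 0.10, adjusted p = 0.00113).

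Past IMP, the enzymes towards GMP did not move alike. GMPS, which makes GMP, fell by 0.82 (SE 0.09, adjusted p = 9.04e-05) on the log2 scale. It read 10.73, 10.76 and 10.71 with DMSO, 10.59, 10.54 and 9.85 with PD184352, and 10.71, 10.54 and 9.92 with PLX4720, so that the inhibitor arrays lay below the DMSO arrays, at 2 h with PLX4720 by less than the rounding shows. IMPDH1 and IMPDH2, the isozymes that precede GMPS and set its supply, did not pass. IMPDH1 was at -0.12 (SE 0.10, adjusted p = 0.42), with 4 further rows between -0.19 and 0.22, and IMPDH2 at 0.17 (SE 0.09, adjusted p = 0.169). IMPDH2 read 9.52 to 9.75 with DMSO and 9.89 and 9.92 on the 24 h inhibitor arrays, above the DMSO range but by little. With the 3 DMSO arrays pooled as the control, an alternative chosen after seeing the data, IMPDH2 passed at 0.24 (adjusted p = 0.0369). That control mixes time with treatment, as IMPDH2 read 9.52 at 2 h and 9.74 at 24 h with DMSO. After quantile normalization IMPDH2 passed at 0.30 (adjusted p = 0.0131).

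The salvage and breakdown genes spread the most, from -1.53 to 0.48. PNP, which splits purine nucleosides into base and sugar phosphate, read 9.54, 9.59 and 9.45 with DMSO. It read 9.44, 9.07 and 7.77 with PD184352 and 9.49, 8.81 and 8.08 with PLX4720. The inhibitor arrays came close to DMSO at 2 h, were lower at 6 h and lower again at 24 h. PNP was at -1.53 (SE 0.14, adjusted p = 2.7e-05) at 24 h, or 34.7% of the DMSO level.

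HPRT1, which salvages hypoxanthine and guanine, was at -0.70 (SE 0.10). APRT, which salvages adenine, was at 0.01 (SE 0.10, adjusted p = 0.967): it read 8.47 to 8.70 with DMSO and 8.44 and 8.51 on the 24 h inhibitor arrays, inside or at the edge of the DMSO range. ADA, which turns adenosine into inosine ahead of PNP, went the other way. It read 8.48, 8.57 and 8.56 with DMSO and 9.09 and 9.0 at 24 h with PD184352 and PLX4720, 140% of the DMSO level (0.48, SE 0.10, adjusted p = 0.00328).

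Among the pyrimidine genes, 4 of 5 fell at 24 h, with a median of -0.53. CTPS1, which makes CTP from UTP, changed most, at -1.12 (SE 0.10, adjusted p = 3.1e-05). Its DMSO arrays read 10.07, 10.10 and 9.90, and the 24 h arrays 8.68 with PD184352 and 8.89 with PLX4720. The 24 h inhibitor signal was thus 46.1% of DMSO.

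UMPS, which closes the route to UMP, was at -0.71 (SE 0.10). CAD, the large enzyme that carries the opening steps, was at -0.53 (SE 0.12, adjusted p = 0.0067). CAD read 10.26, 10.09 and 9.89 with DMSO, so that the DMSO array of 24 h was itself below that of 2 h. On the 24 h inhibitor arrays it read 9.25 and 9.46, below every DMSO array. DHODH, the mitochondrial enzyme between CAD and UMPS, was at -0.50 (SE 0.11, adjusted p = 0.0068), and CTPS2, the other CTP synthase, was at 0.22 (SE 0.11, adjusted p = 0.151). CTPS2 passed at 0.32 (adjusted p = 0.0157) with pooled DMSO arrays and at 0.28 (adjusted p = 0.0413) after quantile normalization. Its DMSO arrays read 8.31 at 2 h and 8.54 at 24 h, so the pooled control mixes time with treatment.

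The genes of deoxynucleotide supply had the lowest median of the steps, -0.99, and all 6 measured genes fell. RRM2, the small subunit of ribonucleotide reductase and the one whose amount follows S phase, read 8.64, 8.75 and 8.23 with DMSO. It read 8.67, 8.33 and 6.52 with PD184352 and 8.72, 8.38 and 7.13 with PLX4720. The 24 h inhibitor arrays lay more than 1 log2 unit below the lowest DMSO array, which was itself the 24 h one. RRM2 was at -1.40 (SE 0.19, adjusted p = 0.000285), and its SE was the widest of the 29 genes, with -1.71 for PD184352 and -1.10 for PLX4720.

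TYMS, thymidylate synthase, had nearly equal values with both compounds. It read 9.81, 9.84 and 9.73 with DMSO, 9.81, 9.84 and 8.59 with PD184352, and 9.81, 9.83 and 8.58 with PLX4720. There was no visible difference at 2 or 6 h, and at 24 h both compounds left 45.3% of the DMSO level (-1.14, SE 0.08, adjusted p = 7.84e-06). RRM1, the large reductase subunit, went from 10.54, 10.69 and 10.65 with DMSO to 9.60 and 9.51 at 24 h with PD184352 and PLX4720, a change of -1.10 (SE 0.10). A much dimmer row that names RRM1 was at -0.02, and with both averaged RRM1 was at -0.56 (adjusted p = 0.000828), a fall of less than 2-fold.

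DCK, the salvage kinase for deoxycytidine, was at -0.89 (SE 0.09), TK1, the S phase kinase for thymidine, at -0.65 (SE 0.13) and DUT, which removes dUTP, at -0.61 (SE 0.09). For DCK and DUT the DMSO signal was higher at 24 h than at 2 h, by 0.45 and 0.38. The 24 h inhibitor arrays were nonetheless below the DMSO arrays of all times for both: DCK read 8.05 and 8.07 there and 8.49 at its lowest with DMSO, and DUT read 7.97 and 7.88 against 8.15.

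**Figure D2:**
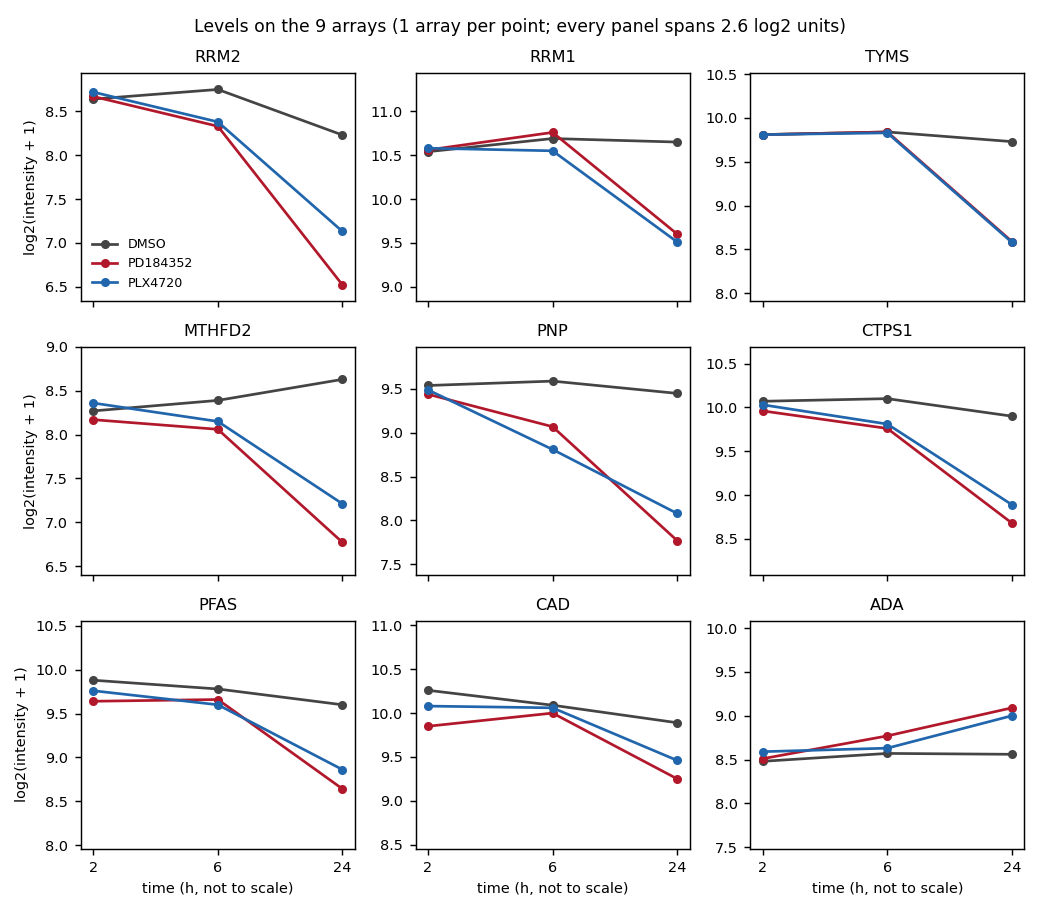
The y axis is the log2 level of 9 named members on each array, the x axis is time, and each point is 1 array with DMSO in grey, PD184352 in red and PLX4720 in blue. The lines of TYMS lie on each other until 6 h and part by 24 h, PNP has already parted at 6 h, CAD reads lower with time on the DMSO arrays as well, and ADA rises with both inhibitors.

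Of the 4 measured folate genes, 3 fell at 24 h and the median was -0.74. MTHFD2, which oxidises the folate-bound carbon in mitochondria, read 8.27, 8.39 and 8.63 with DMSO, 8.17, 8.06 and 6.77 with PD184352 and 8.36, 8.15 and 7.21 with PLX4720. DMSO and inhibitor arrays moved apart from both sides, and 32.1% of the DMSO level was left at 24 h (-1.64, SE 0.16, adjusted p = 3.5e-05). MTHFD2 had 3 further rows, all dimmer, with changes of -0.96, -0.78 and -0.39, and with all rows averaged it fell below the filter and was not tested.

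SHMT2, the mitochondrial enzyme that takes the carbon from serine, was at -0.74 (SE 0.10), and read 10.19, 10.22 and 10.28 with DMSO against 9.46 and 9.64 at 24 h with PD184352 and PLX4720. MTHFD1, which handles the carbon in the cytosol, was also at -0.74 (SE 0.10). A dimmer row that names MTHFD1 was at -0.21, and with both averaged it was at -0.47 (adjusted p = 0.00184). SHMT1, the cytosolic partner of SHMT2, was at 0.02 (SE 0.09, adjusted p = 0.916), with 9.03 and 9.06 on the 24 h inhibitor arrays and 9.03 on the DMSO array of that time. A dimmer row that names SHMT1 was at -0.15, and with both averaged SHMT1 was at -0.06 (adjusted p = 0.681).

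Set side by side, the steps of the network ranked by median change at 24 h as deoxynucleotides (-0.99), folate (-0.74), purine ring (-0.69), pyrimidines (-0.53), salvage (-0.34) and IMP to GMP (-0.12). The groups overlap, and no test was made between them. Every measured gene fell in the deoxynucleotide and purine ring steps, and each of the other 4 steps held at least 1 that did not. Falls of at least 2-fold were seen for 6 of the 29 genes, where 2.77% of all tested genes had one: MTHFD2, PNP, RRM2, TYMS, CTPS1 and RRM1. The ranking rests on 3 to 7 genes a step and depends on how genes with several rows are read. With all rows of a gene averaged the medians were -0.77 for deoxynucleotides, -0.66 for the purine ring, -0.53 for pyrimidines, -0.47 for folate (without MTHFD2, then below the filter), -0.34 for salvage and -0.05 for IMP to GMP. With DMSO pooled over times pyrimidines were at -0.71, and the purine ring and folate both at -0.69. IMP to GMP ranged from -0.22 with DMSO pooled to -0.03 after quantile normalization. With rows averaged, RRM1 was no longer among the falls of at least 2-fold.

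**Figure D3:**
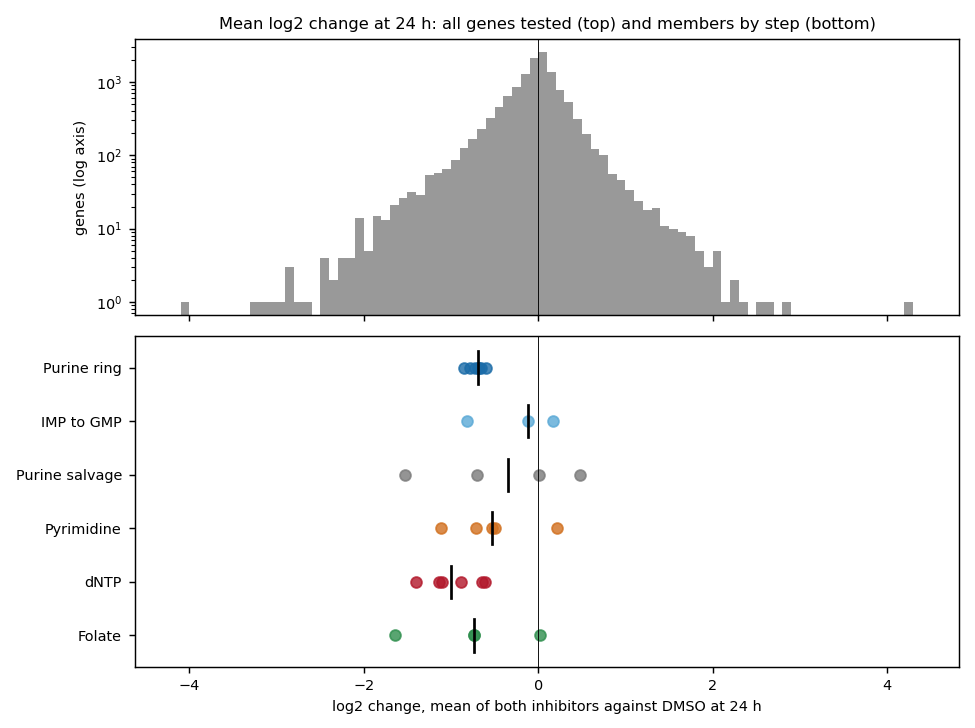
The upper panel counts all 12785 tested genes by their mean log2 change at 24 h on a log axis, and the lower panel places each member on the same x axis by step, with a bar at the step's median. The 7 purine ring genes sit close together between -0.85 and -0.60, and the salvage genes range from -1.53 to 0.48.

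Isozymes of the same reaction had different values. At 24 h the CTPS1 to CTPS2 ratio changed by -1.34 (log2), -1.44 with PD184352 and -1.23 with PLX4720. The SHMT1 to SHMT2 ratio changed by 0.76, and the IMPDH1 to IMPDH2 ratio by -0.29. As a mean over the 3 times these changes were -0.57, 0.38 and -0.19. An exact permutation of the treatment labels within times, two-sided over 27 arrangements, gave p = 0.037 for CTPS and for SHMT and p = 0.0741 for IMPDH, with 0.0555, 0.0555 and 0.0741 after adjustment over the 3 pairs. The smallest p that this design allows is 0.037, and none of the pairs passed after adjustment. Without the DMSO 24 h array the CTPS and SHMT values were -0.19 and 0.19. PRPS1 and MTHFD1L had no row of their own, and their pairs were not compared.

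**Figure D4:**
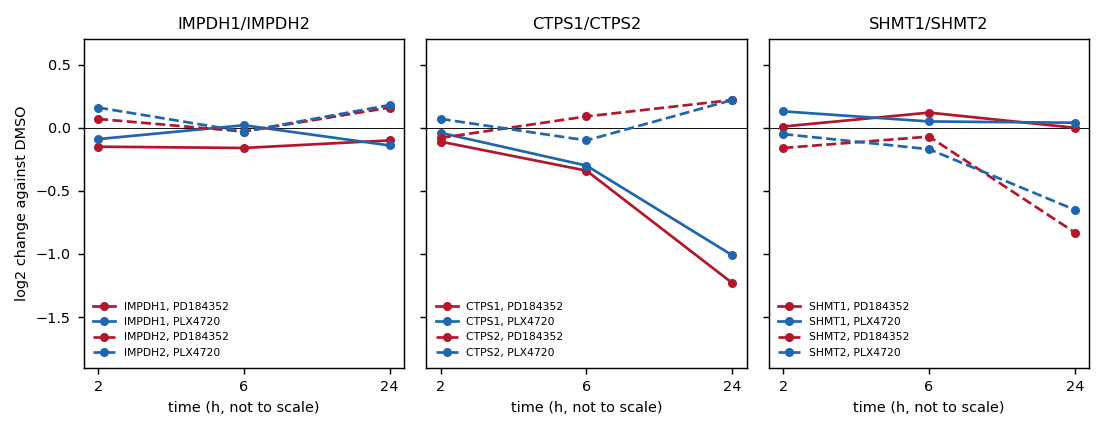
Log2 change against DMSO of the same time is plotted over time for 3 isozyme pairs, with the gene named first as a solid line, the other dashed, PD184352 in red and PLX4720 in blue. CTPS1 and SHMT2 go down at 24 h while CTPS2 and SHMT1 stay near or above 0, and the IMPDH lines all stay between -0.16 and 0.18.

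Most of the fall came late. At 2 h limma called 0 of 29 genes lower and 0 higher, where 0.0704% and 0.0156% of all tested genes were. Of the 29, 1 had an unadjusted p below 0.05, as did 7.41% of all tested genes. The changes lay between -0.30 (CAD) and 0.18 (DUT). At 6 h PNP alone was lower, at -0.65 (SE 0.14, adjusted p = 0.0334), with 2.74% of all tested genes lower, and 0 were higher, with 0.548% of all tested genes higher. The change at 6 h was negative for 26 of the 29, and for 7082 of the 12785 tested genes. Its median was -0.12, against -0.02 over all tested genes. By limma 6 of the 29 had an unadjusted p below 0.05 at 6 h, as did 15.5% of all tested genes. The PNP call at 6 h was lost without either of the 2 h inhibitor arrays (adjusted p = 0.0805 each), without the PLX4720 6 h array (adjusted p = 0.159), with no filter on dim genes (adjusted p = 0.0897) and after quantile normalization (adjusted p = 0.0971). RRM2 at -0.40 (SE 0.19), PPAT at -0.34 (SE 0.10), CTPS1 at -0.32 (SE 0.10) and UMPS at -0.31 (SE 0.10) came next at 6 h and did not pass. RRM2 was also called when either 24 h inhibitor array was left out, which made 2 genes in each case, and PPAT was called with pooled DMSO arrays.

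By limma's F-test the change differed between times for 22 of the 29 genes, where 14.9% of all tested genes did. The 22 are the genes that fell at 24 h other than CAD, whose changes were -0.30, -0.06 and -0.53 at 2, 6 and 24 h. Without the PLX4720 2 h array the count was 13. The change at 24 h was lower than that at 6 h for 16 of 29 genes, with 5.07% of all tested genes lower, among them all 6 deoxynucleotide genes but 3 of 7 purine ring genes. TYMS had the smallest adjusted p of the 29 for that difference (-1.14, adjusted p = 0.000467). PPAT, already at -0.34 by 6 h, did not pass there (-0.44, adjusted p = 0.0954).

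Within inhibitor-treated cells, the 24 h arrays were lower than the 2 h arrays for 23 genes, where 19.2% of all tested genes were, and higher for 3, where 22.3% were. The 3 were ADA (0.49), CTPS2 (0.46) and IMPDH2 (0.27). On the DMSO arrays they also read higher at 24 h than at 2 h, by 0.08, 0.23 and 0.22, with a median of 0.09 over the 29. The comparison within inhibitor-treated cells uses no DMSO array but shares its 24 h inhibitor arrays with the one above. With the 3 DMSO arrays pooled as the control, 23 genes were lower and 3 higher at 24 h, where 23% and 15.7% of all tested genes were.

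Averaged over the 3 times, 0 of the 29 genes were called lower by limma for the mean of both inhibitors (all tested genes 0.133%). The smallest adjusted p among the 29 was 0.171, and 11 had an unadjusted p below 0.05, as did 20.3% of all tested genes. This fit takes a change as alike at all times, so a fall seen only late enters the residual and widens the SE. Without the DMSO 2 h array 2 genes were called lower, PPAT and PNP. PD184352 and PLX4720 were given at different doses. For 20 of the 23 genes lower at 24 h the PD184352 array read below the PLX4720 array, as it did for 73.8% of all genes lower at that time, with no test at a single time. The widest gaps were in RRM2 (-0.60), MTHFD2 (-0.44) and TK1 (-0.33).

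Over the 3 times, 0 of 29 genes differed between the inhibitors by limma, and 0% of all tested genes were called. An unadjusted p below 0.05 was seen for 0 of the 29, and for 1.32% of all tested genes. In this fit too a late fall enters the residual and widens the SE, which was 0.33 for MTHFD2 and 0.29 for RRM2. The absence of calls therefore does not show that the inhibitors had equal effects. The 95% interval of PD184352 minus PLX4720 stayed inside 2-fold either way for 28 of the 29, and for 12710 of the 12785 tested genes. For RRM2 the difference was -0.24 (95% interval -0.93 to 0.46), and for MTHFD2, the exception, -0.24 (95% interval -1.02 to 0.54). A fit of the 6 inhibitor arrays alone, added after seeing the data, called 0 of 29 genes as well, and 0 of all tested genes. Of the 29, 3 had an unadjusted p below 0.05, and the share of all tested genes there was not counted.

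Neighbouring genes of the network, listed from their functions, were tested on the same arrays. Of 22 tested genes of other nucleotide reactions, 7 were lower and 1 higher at 24 h, where 19.2% and 12.5% of all tested genes were, with a median of -0.08. NT5E, which makes adenosine outside the cell, read 7.69, 7.93 and 7.77 with DMSO and 6.40 and 6.45 on the 24 h inhibitor arrays, a change of -1.35 (SE 0.09). It was already lower at 6 h (-0.68, adjusted p = 0.00225). AK4, an adenylate kinase of mitochondria, was at -0.96 (SE 0.14), DCTPP1, which clears dCTP and its modified forms, at -0.86 (SE 0.10), UCK2, the uridine and cytidine salvage kinase, at -0.83 (SE 0.11) and DCTD, which deaminates dCMP, at -0.50 (SE 0.10). ADSS1, a form of the enzyme that opens the route from IMP to AMP, read 7.96 to 8.11 with DMSO and 8.96 and 8.77 at 24 h, and was at 0.91 (SE 0.10, adjusted p = 9.71e-05).

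Of 15 tested genes of folate, serine and methyl metabolism outside the set, 9 were lower and 0 higher at 24 h, against the same 19.2% and 12.5% of all tested genes, with a median of -0.34. Within inhibitor-treated cells, 5 of the 15 were lower at 24 h than at 2 h, where 19.2% of all tested genes were. In that comparison 0 were higher, where 22.3% of all tested genes were. PHGDH and PSAT1, which open the synthesis of serine, were at -0.97 (SE 0.13) and -0.92 (SE 0.10). For PSAT1 the DMSO signal went from 10.37 at 2 h to 10.91 at 24 h, and the 24 h inhibitor arrays read 10.01 and 9.97. ALDH1L2, a mitochondrial folate oxidase, was at -0.79 (SE 0.11), but its DMSO signal was 6.71 at 2 h and 7.49 at 24 h, and the inhibitor arrays of 24 h, 6.63 and 6.77, lay close to those of 2 h, 6.52 and 6.77. MAT2A, which makes the methyl donor S-adenosylmethionine, was at -0.64 (SE 0.10) and was lower at 6 h as well (-0.53, adjusted p = 0.0175). GGH, which trims folate chains, was at -0.53 (SE 0.09), but its DMSO signal was 8.44 at 2 h and 9.07 at 24 h. With PD184352 and PLX4720 GGH read 8.5 and 8.56 at 2 h, and 8.56 and 8.52 at 24 h. GLDC, which releases a carbon from glycine, was at -0.41 (SE 0.10).

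Genes of DNA copying fell too. All 25 tested DNA replication genes were lower at 24 h, where 19.2% of all tested genes were, with a median of -1.28, led by MCM10 (-2.05, SE 0.21) and CDC45 (-2.01, SE 0.19), and 0 of them were lower at 6 h, where 2.74% of all tested genes were. Of 15 tested ribosome biogenesis genes 14 were lower at 24 h (all tested genes 19.2%), with a median of -0.70, led by RRS1 (-1.18, SE 0.13) and NOLC1 (-1.11, SE 0.10), and 2 were lower at 6 h (all tested genes 2.74%). MYC, a transcription factor known to act on many of the genes described here, read 8.35, 8.42 and 8.57 with DMSO and 7.57 to 7.79 on the 6 inhibitor arrays. The arrays of the groups did not overlap at any time, and MYC was at -0.69 at 2 h (adjusted p = 0.0502), which did not pass, -0.79 at 6 h (adjusted p = 0.00234) and -0.86 at 24 h (adjusted p = 0.000142). E2F1, an activator of S phase genes, was at -0.13 at 6 h, which did not pass, and -0.64 (SE 0.09) at 24 h. Both belong to a list of 12 tested transcription factors. Of these, 8 were lower and 1 higher at 24 h (all tested genes 19.2% and 12.5%), and 3 did not pass. These lists and the nucleotide genes were measured on the same arrays, and the part of a shift in cell cycle in the result was not tested.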

How the data were processed

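The deposited file holds a linear intensity for each row and array, as deposited by the authors. Per the submitters' processing notes, RMA, limma and R 2.8.0 were used, with no role or order. The genome build of the annotation was not given in the sources used here. Here log2(value + 1) was computed with no further normalization. Of 35446 rows, 19380 named 1 gene in the platform table, 3339 named several and 12727 were not in it. A gene with several rows took its brightest row by mean over the 9 arrays, as for 7 of the 29 members, and the 4262 genes with the lowest means were left out.

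All fits used limma 3.58.1 in R 4.3.3 on all 12785 tested genes, with Benjamini-Hochberg adjustment over all of them and calls at an adjusted p below 0.05. One fit compared both inhibitors with DMSO at each time (residual degrees of freedom 3), and the other had treatment with time as a block (residual degrees of freedom 4). With 1 column per treatment and time, p-values rest on the spread between compounds or between times, not between cultures. Limma moderated that spread towards the spread of all tested genes, with prior degrees of freedom of 7.05 in the fit at each time. The number of arrays limits the precision. Both fits were tested on simulated data. Alternatives were a pseudocount of 16, no filter or a stricter one, an intensity trend in the variance prior, quantile normalization, the mean of a gene's rows and each array left out. DMSO pooled over times and the inhibitor arrays alone were added after seeing the data.

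The members, gene lists and tests were chosen with earlier results of these data known. All 29 measured members are named, with the 6 largest changes at 24 h of each list of other pathway genes. The 2 largest of the DNA replication and ribosome biogenesis lists are named too, and MYC and E2F1 of the 12 transcription factors. PPAT, PNP and RRM2 are singled out under other settings after their values were seen. Promoters come from RefSeq, build GRCh38.p14, and those printed were picked by name.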

Additional observations from a re-analysis of the deposited data

Results flagged for a closer look

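For 22 members the change against DMSO differed between times by limma's F-test over all tested genes (adjusted p below 0.05), and their values are given as the change at 24 h minus that at 2 h on the log2 scale. In the purine ring these were -0.72 for PRPS2, -0.72 for PPAT, -0.67 for GART, -0.67 for PFAS, -0.59 for PAICS, -0.61 for ADSL and -0.67 for ATIC. Beyond IMP and in salvage they were -0.73 for GMPS, -0.74 for HPRT1 and -1.45 for PNP. The pyrimidine genes were at -0.66 for DHODH, -0.69 for UMPS and -1.04 for CTPS1. The deoxynucleotide genes were at -1.14 for TYMS, -1.12 for RRM1, -1.45 for RRM2, -0.78 for DUT, -0.94 for DCK and -0.55 for TK1. The folate genes were at -0.63 for SHMT2, -0.79 for MTHFD1 and -1.63 for MTHFD2, the furthest of the 22. Each value uses the single DMSO arrays of 2 and 24 h, and 14.9% of all tested genes passed the same test.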

How the results depend on the processing

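No paired analysis was possible because the labels give no replicate numbers to pair by, and arrays were matched by time only. The count of 23 members lower at 24 h was 21 with all rows of a gene averaged, where PPAT was at -0.26 (adjusted p = 0.0782) and MTHFD2 fell below the filter, and 23 under every other alternative that could be run. There is no 24 h comparison without the DMSO 24 h array. The 1 higher member became 3 after quantile normalization and 3 with DMSO pooled over times (all tested genes 16.4% and 15.7%). Under these settings the 1 higher gene among the other pathway genes became 2 and 3. The 1 member lower at 6 h became 0 with no filter on dim genes and after quantile normalization, 2 with DMSO pooled, and 0 to 2 when single arrays were left out. The 22 members that differed between times were 13 to 23 without single arrays, and the 0 lower over all times were 0 to 2. Among members that were not called, APRT (0.01) ranged from -0.03 to 0.04 as single arrays were left out, turning negative when PLX4720 at 24 h was, and was at -0.11 with DMSO pooled, and SHMT1 to -0.06 with all rows averaged. The cause of these shifts was not tested. A pooled control has more residual degrees of freedom, and it also takes in the DMSO arrays of 2 and 6 h. For APRT these read 8.70 and 8.58, against 8.47 at 24 h.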
